A study of Mus musculus with 15 samples.

Results

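The 6 newborn livers of this study were divided by a fixed rule into 2 sets of 3 that cross the exposure groups, and 100 of the 42006 probes on the array were taken because they separated those sets by the widest margin. Other divisions of the 6 livers were not compared. Set A held the arrays labelled newborn tap replicate 1, newborn as replicate 2 and newborn as replicate 3. Set B held newborn as replicate 1, newborn tap replicate 2 and newborn tap replicate 3. For each probe the log2 ratio of liver over reference signal was compared between the sets, and the gap was the distance from the lowest array of the higher set to the highest array of the lower set. The 100 probes with the largest gap were kept. Of these, 48 were higher in set A and 52 were higher in set B, so the separation ran in both directions. Because the values of these 6 arrays chose the probes, the values given for PND1 are a description and carry no test.

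The paper's methods give apolipoprotein E-knockout animals (ApoE-/-), while the labels give strain C57/BL6J. There were 5 groups of 3 livers, each mouse taken to be from a separate litter, as the methods state. In the labels the identifiers of newborn tap replicate 2 and newborn tap replicate 3 are cut short and begin alike. Their litters could not be checked there. The newborn as group (PND1) was born to dams whose drinking water held 49 ppm arsenic (sodium arsenite at 85 mg/L) between gestational day 8 and birth, and the newborn tap group (PND1) to dams on arsenic-free tap water. At PND70, 10 weeks of age, the as/tap group had the same prenatal exposure and tap water afterwards, the tap/tap group was never exposed, and the tap/as group drank the same arsenic water from PND21. The paper does not describe the tap/as group, and all groups were taken to share the Apoe knockout. By that account no wild-type liver was measured. The sexes of these mice are not given in the sources used here. Each liver RNA was labelled with Cy3 and hybridized with a Cy5-labelled pool of RNA from 11 mouse cell lines, the same reference on all 15 arrays.

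The liver of a newborn mouse is in transition. It still holds blood-forming cells, chiefly erythroid and myeloid precursors, among hepatocytes that are switching on gluconeogenesis, ketogenesis and the other functions that the placenta had covered, and feeding, fasting and the hour of sampling all act on its transcripts. In whole-liver RNA a change in the share of a cell type and a change in the transcripts per cell cannot be told apart. The data used here pair each probe with an identifier and its 60-base sequence and with no gene, so the transcripts are given by probe and sequence. A gene list for this array, which the paper cites, was not available here.

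The probes that separated the newborn sets most widely in each direction were the following, printed 5′ to 3′ as the files give them, since no gene name comes with them:
Z00057159-1: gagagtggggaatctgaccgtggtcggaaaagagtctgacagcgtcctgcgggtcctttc
Z00023638-1: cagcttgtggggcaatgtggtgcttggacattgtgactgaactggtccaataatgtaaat
Z00010202-1: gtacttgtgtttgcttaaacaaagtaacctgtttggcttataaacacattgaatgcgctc
Z00054465-1: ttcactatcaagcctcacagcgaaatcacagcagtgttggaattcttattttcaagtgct
Z00057159-1 and Z00023638-1 were higher in set A, and Z00010202-1 and Z00054465-1 were higher in set B. A further member, Z00070589-1, carries the same 60 bases as Z00054465-1, so the 100 probes hold 99 distinct sequences.

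The probes with the largest differences between PND1 and PND70 in each direction, and those named for a difference at PND70, are shown next. Z00023068-1 and Z00036421-1 were higher at PND70, Z00006571-1 and Z00010416-1 were lower, Z00037261-1 and Z00048288-1 were higher after postweaning arsenic, and Z00060641-1 and Z00067946-1 were grouped with Z00048288-1. Capitals mark the 16 bases that the last pair share:
Z00023068-1: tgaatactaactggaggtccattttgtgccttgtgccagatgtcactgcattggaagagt
Z00036421-1: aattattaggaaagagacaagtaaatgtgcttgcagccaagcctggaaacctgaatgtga
Z00006571-1: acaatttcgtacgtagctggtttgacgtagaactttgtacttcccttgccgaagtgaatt
Z00010416-1: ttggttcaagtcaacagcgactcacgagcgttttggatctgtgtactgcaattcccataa
Z00037261-1: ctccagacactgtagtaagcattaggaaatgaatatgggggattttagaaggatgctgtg
Z00048288-1: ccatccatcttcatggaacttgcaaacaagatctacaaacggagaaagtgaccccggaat
Z00060641-1: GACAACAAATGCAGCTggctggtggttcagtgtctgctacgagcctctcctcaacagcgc
Z00067946-1: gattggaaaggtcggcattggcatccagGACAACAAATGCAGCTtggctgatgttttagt

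The signals behind these probes were high. In each channel all 1500 values of the 100 probes on the 15 arrays were well above background. Saturation was flagged for 1 Cy3 value, on a newborn array, so the Cy3 difference of that probe is approximate. Their median newborn Cy3 signal was 3464 scanner units against 803 over all probes. Over the newborn arrays the median raw Cy3 signal above background ran from 109 to 177 units and the Cy5 signal from 257 to 377, with sets A and B overlapping in both. The images of each age were quantified on a day of their own, so age and that day cannot be told apart, and within the newborn day the set A arrays stood at places 2, 3 and 4 of 6, whose part in the separation was not tested. Of the 58 control probes of the array, 2 had sets that did not overlap, and their largest gap was 0.19 on the log2 scale.

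At PND1 the widest separation belonged to Z00057159-1, whose log2 ratio was 3.44, 2.95 and 4.49 on the set A arrays (in the order given above) and 0.44, 1.21 and 0.89 on the set B arrays. Its gap was 1.74 and its set means differed by 2.78 on the log2 scale, a 6.88-fold difference. The 2 exposed livers of set A lay on either side of its unexposed liver, and the exposed liver of set B was the lowest of all 6.

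Z00023638-1 was tighter within each set. Its log2 ratio was 3.77, 3.99 and 4.08 in set A and 2.44, 2.22 and 2.06 in set B, a 3.26-fold difference between the set means. The sets did not overlap, and newborn as replicate 3 was the highest of the 6.

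Among the probes higher in set B, Z00010202-1 had log2 ratios of -3.78, -4.28 and -5.09 in set A and of -0.42, -2.02 and -2.08 in set B, a 7.35-fold difference. The exposed liver of set B, newborn as replicate 1, had the highest value of the 6, well above its own set.

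Z00054465-1 had log2 ratios of 0.29, -0.06 and -0.87 in set A and of 1.95, 2.23 and 2.20 in set B, a 5.07-fold difference. Its sequence twin Z00070589-1 gave 0.24, -0.06 and -0.79 against 1.82, 2.16 and 2.07, and over all 15 arrays the pair correlated at 0.999. These are separate spots of one sequence, and they are not separate evidence.

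**Figure D1:**
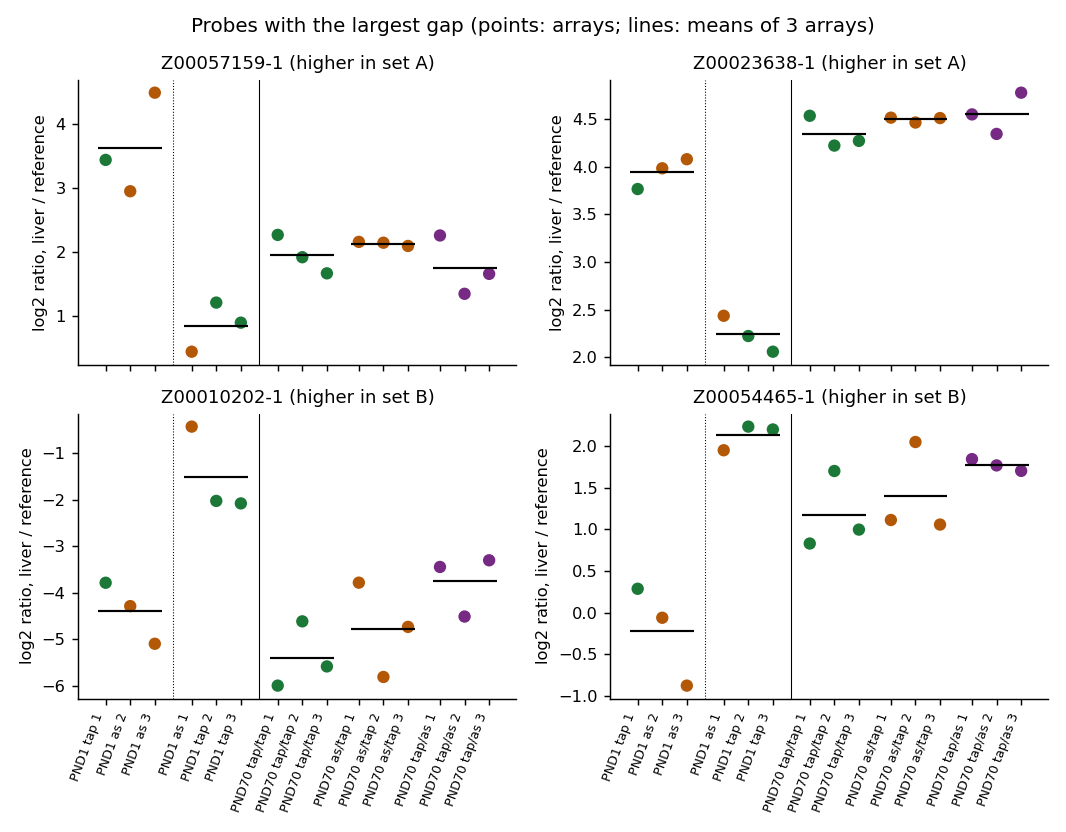
Log2 ratio of liver over reference signal (vertical axis) on each of the 15 arrays (horizontal axis) for the 2 probes with the largest gap in each direction; points are arrays, horizontal lines are means of 3 arrays, green marks unexposed livers, orange prenatal arsenic and purple postweaning arsenic. For Z00057159-1 the 3 set A arrays lie between 2.95 and 4.49 and the 3 set B arrays between 0.44 and 1.21.

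Across all members the separation was broad and graded, without a break at the limit. The set means differed by a median of 1.30 (log2) among the 48 probes higher in set A, with a range from 0.86 to 2.78, and by a median of 1.59 among the 52 higher in set B, from 0.99 to 2.88. The median over all probes was 0.11. At least a 2-fold difference between set means was found for 96 members and at least a 4-fold difference for 14, of which 11 were higher in set B. The last 3 members had gaps of 0.718, 0.718 and 0.712, and the first 3 probes outside had gaps of 0.710, 0.710 and 0.709. Sets that did not overlap were found for 17.8% of all probes (7469), of which 3945 were higher in set A and 3524 in set B, and nothing is read from the members' own sets, which the rule chose not to overlap. The choice rests on single arrays to some extent. With 1 newborn array left out, 38 of the 100 stayed among the largest gaps without newborn tap replicate 1, 60 without newborn as replicate 2, and 72 to 87 without any of the other 4.

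Within the sets the livers were spread out, with newborn as replicate 3 at the far end. That liver had the highest of the 6 values for 37 of the 48 probes higher in set A and the lowest for 39 of the 52 higher in set B. Over the 48 probes the median log2 ratio was 2.02 on newborn tap replicate 1, 2.15 on newborn as replicate 2 and 2.53 on newborn as replicate 3, against 0.69, 0.95 and 0.79 on newborn as replicate 1, newborn tap replicate 2 and newborn tap replicate 3. Over the 52 probes the medians of the same arrays were 0.27, -0.02 and -0.54 against 1.70, 1.48 and 1.46. The unexposed liver of set A, newborn tap replicate 1, was its array nearest to set B for 29 of the 48 and 41 of the 52, and the exposed liver of set B was the most distant from set A, by those medians, in both directions.

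**Figure D2:**
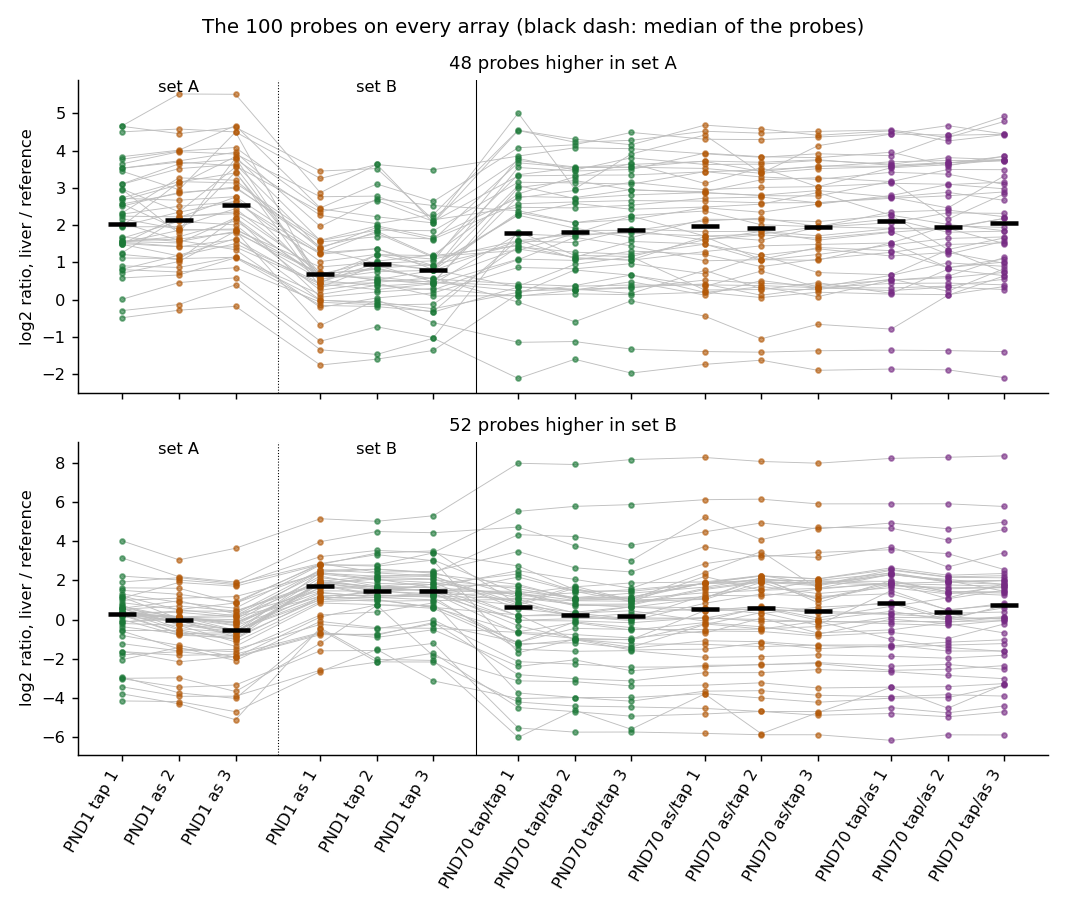
Log2 ratio of liver over reference signal (vertical axis) of the 48 probes higher in set A (upper) and the 52 higher in set B (lower) on each of the 15 arrays; grey lines join the values of 1 probe, black dashes are medians over the probes, and colours are green for unexposed livers, orange for prenatal and purple for postweaning arsenic. The upper medians step from 2.53 on PND1 as 3 to 0.69 on PND1 as 1, and the medians of the 9 PND70 arrays lie between 1.80 and 2.12.

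The sets do not match exposure, and they are not balanced for it either, since set A held 2 exposed livers and set B held 1. The mean of the exposed livers minus that of the unexposed livers therefore had the sign of set A minus set B for all 100 probes, with a median size of 0.57 on the log2 scale. Within set A the mean of the 2 exposed livers lay further from set B than the unexposed liver did for 83 of the 100 probes. Within set B the exposed liver lay nearer to set A than the mean of the unexposed livers for 42 and further from it for the rest. The probes were collected as variation unrelated to arsenic. The rule itself made the sets cross the exposure labels, and any part of arsenic in the variation was not tested.

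The separation was carried by the liver channel. In Cy3, the liver, the set means differed by a median of 1.44 (log2 signal) for the probes higher in set A and of -1.49 for those higher in set B. In Cy5, the common reference, the same medians were 0.14 and 0.08, against 0.06 over all probes. The Cy3 sets did not overlap, in the direction of the ratio, for 48 of the 48 and 51 of the 52, and they did not overlap in either direction for 20.6% of all probes. The Cy5 sets did not overlap for 25 of the 100, with set A higher in 22, and for 17.8% of all probes.

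For 3 members, chosen here for it, the reference channel moved by more than 0.5 times the difference of the ratio. Z00026329-1 differed by 4.55 in Cy3 and by 2.17 in Cy5, both higher in set A, and Z00043451-1 by 3.47 and 1.69. In both, the reference signal was higher on the arrays whose liver signal was higher. Z00024856-1, the last member by gap, was lower in set A by 0.41 in Cy3 and higher by 0.59 in Cy5, so that most of its ratio difference came from the reference.

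**Figure D3:**
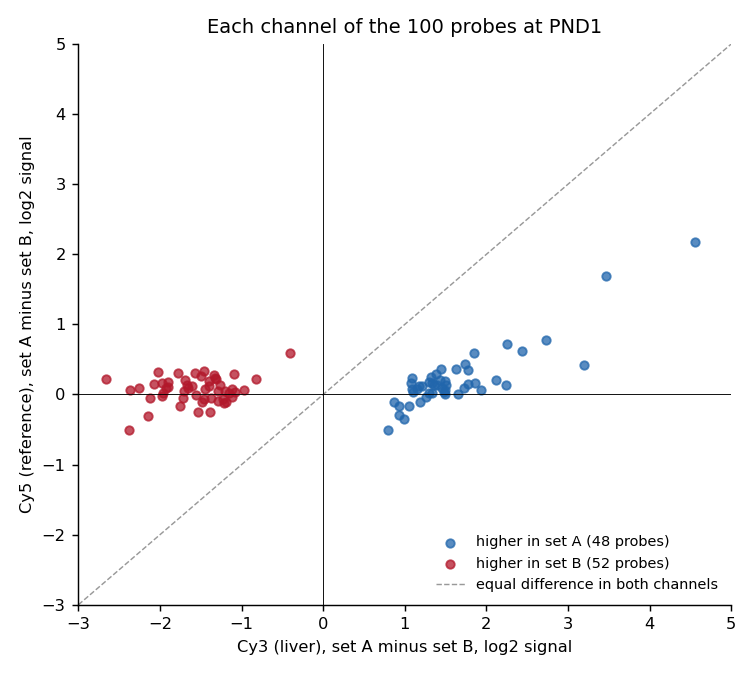
Set A minus set B at PND1 in the Cy3 liver channel (horizontal, log2 signal) and in the Cy5 reference channel (vertical, log2 signal) for the 48 probes higher in set A and the 52 higher in set B; the dashed line marks equal differences in both. Most probes lie along the horizontal axis, and Z00026329-1 at 4.55 and 2.17 stands furthest from it.

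The second question was where these transcripts stand on the change from birth to 10 weeks. The rule used no PND70 array, but the 6 newborn arrays that chose the probes are one side of this comparison and their chosen spread sets its error, so the age differences of the members are given as a description, with no test. They are PND70 minus PND1 on the 12 arrays of the prenatal design. Their median was 0.42 (log2) for the 48 probes higher in set A, from -1.67 to 2.18, and -0.24 for the 52 higher in set B, from -3.82 to 3.70. The median size was 0.81 against 0.28 over all probes. In the limma fit over all 42006 probes, at a Benjamini-Hochberg adjusted p of 0.05, 25 members were higher at PND70, against 30.2% of all probes, and 25 were lower, against 28.7%, and nothing is read from these counts.

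Place on the age axis varied from probe to probe. The mean of the 6 PND70 tap/tap and as/tap arrays lay above both newborn set means for 28 members, below both for 30 and between them for 42. Means that far apart, as the rule chose them, leave more room between them, and the share was 24.6% over the other probes whose sets did not overlap, so nothing is read from it. The newborn sets were further apart than the ages for 76 of the 100 members and for 26.3% of all probes, a count that the choice of members raises. All 9 PND70 arrays lay above every newborn array for 14 members, against 19.3% of all probes, and below every newborn array for 16, against 16.8%, and for 70 the ages overlapped. The members' spread at PND1, for which they were chosen, makes such overlap more likely. The mean of the 6 PND70 arrays was nearer to set A for 59 of the 100 members, 30 of the 48 and 29 of the 52. It was nearer to set A for 52.3% of the other probes whose sets did not overlap. This too is a description, with no test.

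The largest difference toward PND70 was that of Z00023068-1, which was higher in set B. Its log2 ratio was 4.01, 3.05 and 3.63 in set A and 5.14, 5.01 and 5.29 in set B, and it was between 7.90 and 8.26 on the 6 PND70 arrays compared. No PND70 array overlapped a newborn array. Its mean was higher at PND70 by 3.70 on the log2 scale. The Cy5 signal was also higher at PND70, by 1.34, against 5.03 in Cy3.

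Z00036421-1, also higher in set B, had log2 ratios of 2.22, 2.02 and 1.78 in set A and 3.21, 3.52 and 3.41 in set B, and of 5.51 to 6.14 at PND70. Its mean was higher at PND70 by 3.19, with Cy5 higher by 1.80. For both of these probes, set B was the set nearer to the adult level.

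The largest difference in the other direction was that of Z00006571-1, with log2 ratios of 1.92, 2.14 and 1.84 in set A, of 2.86, 3.31 and 3.00 in set B, and a mean of -1.31 over the 6 PND70 arrays compared, the lowest at -1.68. PND70 minus PND1 was -3.82, while its Cy5 signal differed by -0.15. Every PND70 array was below every newborn array, and set A was the nearer set.

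Z00010416-1 had log2 ratios of -0.59, -1.49 and -1.64 in set A and of 0.24, 0.39 and 0.85 in set B, and of -4.15 to -3.62 at PND70. PND70 minus PND1 was -3.45, again without overlap and with set A nearer.

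Of the probes with the largest newborn gaps, Z00023638-1 had PND70 values of 4.22 to 4.54, above both sets, and an age difference of 1.33 on the log2 scale. Z00010202-1 had an age difference of -2.14. Z00057159-1 and Z00054465-1 lay between the sets at PND70, with age differences of -0.20 and 0.34.

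**Figure D4:**
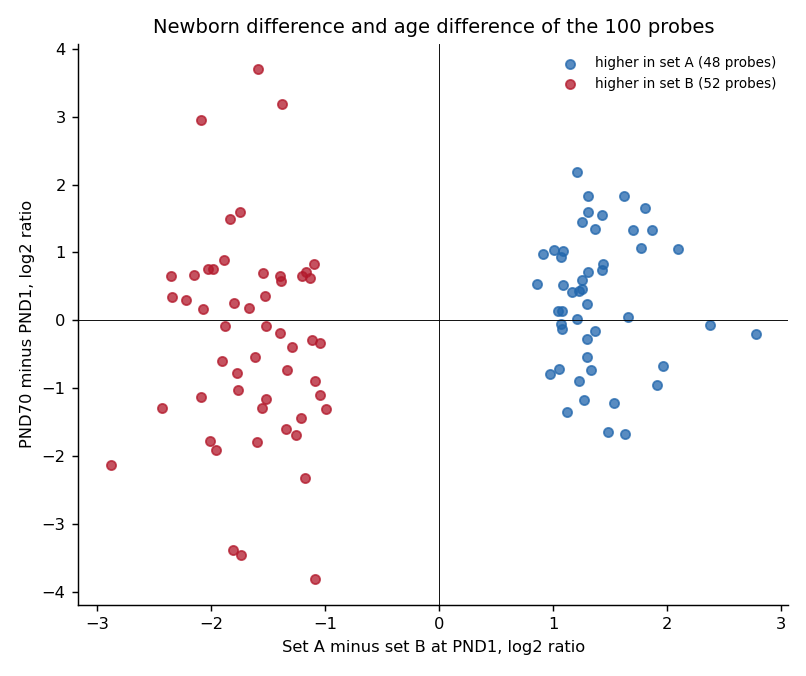
Age difference, PND70 minus PND1 (vertical, log2 ratio), against set A minus set B at PND1 (horizontal, log2 ratio) for the 48 probes higher in set A and the 52 higher in set B; each point is 1 probe, and both axes use the newborn arrays that chose the probes. The age differences run from -1.67 to 2.18 for the probes higher in set A and from -3.82 to 3.70 for those higher in set B.

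The reference channel also differed between the ages. The median size of its Cy5 difference was 0.17 over the members and 0.23 over all probes, against 0.93 and 0.45 in Cy3. The Cy5 difference was over 0.5 in size for 16 members, up to 1.80, and at least as large as the Cy3 difference for 13 of the 100 members and for 27.1% of all probes. Among these, chosen here for it, Z00033748-1 had an age difference of -0.89 with Cy3 lower by 0.33 and Cy5 higher by 0.57 at PND70.

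The PND70 arrays, which the rule did not use, give the members' spread free of that choice. The median SD over the 9 PND70 arrays was 0.24 (log2) against 0.14 over all probes, and over the 6 newborn arrays it was 0.82 against 0.15, the latter chosen by the rule. Each SD pools exposed and unexposed livers, so differences between the exposure groups count in it. The members' signals were also higher than those of all probes, and probes of like signal were not compared.

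Arsenic at 10 weeks was the third comparison, and it was fitted on the 9 PND70 arrays alone, which the rule did not use. The images of these arrays were quantified group by group. The tap/tap arrays stood at places 1 to 3, as/tap at 4 to 6 and tap/as at 7 to 9. Exposure and this order therefore cannot be told apart. Flagged outlier spots numbered 1281 to 1759 on tap/tap, 855 to 925 on as/tap and 2086 to 3688 on tap/as arrays. The members and tests were still chosen with earlier results of these data known. The prenatal (as/tap) and postweaning (tap/as) differences share the tap/tap arrays, so they are given side by side. With prenatal arsenic no member passed the adjustment in either direction, against 0.00238% of all probes higher and 0.0% lower. At an unadjusted p of 0.01, the threshold of the study's methods, 14 members were higher, against 3.34% of all probes, and 1 was lower, against 1.14%. With postweaning arsenic 4 members were higher after adjustment, against 0.157%, and none lower, against 0.019%. At the unadjusted threshold, 19 were higher, against 4.53%, and 2 lower, against 1.05%. The prenatal count of 14 fell to 6 without tap/tap replicate 2, to 7 without tap/tap replicate 3 or as/tap replicate 2, and to 9 without as/tap replicate 3, while the postweaning count of 19 ranged from 15 to 21 with 1 array left out.

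The members with these small p-values came mostly from the probes higher in set B, with 13 of the 14 for prenatal and 15 of the 19 for postweaning arsenic. The median difference of the 52 probes higher in set B was 0.29 (log2) with prenatal and 0.24 with postweaning arsenic, and 39 and 35 of them were positive. For the 48 higher in set A the medians were 0.04 and 0.17, and 29 and 37 were positive. Over all probes the medians were 0.00 for both, and 50.5% of the prenatal and 49.4% of the postweaning differences were positive. Both differences are taken from the same tap/tap arrays, so the 2 counts are not separate evidence.

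Z00037261-1 had the smallest p among the members called with postweaning arsenic. Its log2 ratio was -0.69, -0.95 and -1.03 on the tap/tap arrays, -0.22, -0.47 and -0.35 on the as/tap arrays, and 0.12, 0.09 and 0.06 on the tap/as arrays. The 3 groups did not overlap. The postweaning difference was 0.98 ± 0.10 (SE, limma, adjusted p = 0.032) and the prenatal difference 0.54 ± 0.10 (adjusted p = 0.18).

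Z00048288-1 had log2 ratios of 1.58, 1.05 and 1.06 on tap/tap, 1.87, 2.23 and 2.08 on as/tap, and 2.64, 2.26 and 2.35 on tap/as arrays. Again the 3 groups did not overlap, and the tap/tap arrays were lowest. The postweaning difference was 1.19 ± 0.16 (SE, limma, adjusted p = 0.048) and the prenatal difference 0.83 ± 0.16 (adjusted p = 0.18). The other two called members, named after their values were seen, were Z00025311-1, higher in set A, with a postweaning difference of 0.81 ± 0.12, and Z00015765-1, higher in set B, with 0.72 ± 0.10 (both adjusted p = 0.048).

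These 4 calls lay close to the threshold. Leaving out 1 array left 0 calls for 7 of the 9 PND70 arrays, 1 call without tap/as replicate 2, and 9 calls without tap/tap replicate 1. With the replicate number as a block there were 0, and with the liver channel alone there were 12.

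Of the 52 probes higher in set B, 11 were grouped here after their values were seen, by joining members whose log2 ratios correlated at 0.95 or more over the 9 PND70 arrays. They were Z00048288-1, Z00060641-1, Z00067946-1, Z00025787-1, Z00034344-1, Z00001182-1, Z00005055-1, Z00005706-1, Z00031478-1, Z00067701-1 and Z00058475-1. The 55 pairs among them correlated at 0.80 to 0.999, values that the grouping fixes, over 9 arrays in 3 exposure groups. The same rule joined 3 further pairs, of which one is the sequence twin above. Z00060641-1 and Z00067946-1 share the 16 bases shown in capitals and may measure related transcripts.

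At PND1 the 11 probes were lower in set A by 1.38 to 2.35 on the log2 scale, with Cy3 lower by 1.09 to 2.03 and Cy5 differing by -0.06 to 0.32. Relative to each probe's tap/tap mean at PND70, their median was -0.65, -1.56 and -1.64 on the set A arrays and 0.89, 0.57 and 0.53 on the set B arrays. By these medians they stood below the unexposed adult level in set A and above it in set B, with single probes from -4.11 to 1.27 and from -1.75 to 2.91.

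Their age differences, a description like those above, ranged from -1.13 to 2.95, with Z00034344-1 the highest.

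At PND70 all 11 were higher in both exposed groups than in tap/tap. On the same scale their median was 0.39, -0.18 and -0.18 on the tap/tap arrays, 0.62, 0.98 and 0.80 on the as/tap arrays, and 1.40, 0.85 and 1.03 on the tap/as arrays. The as/tap arrays were all above the tap/tap arrays for 11 of 11, against 12.7% of all probes, and the tap/as arrays for 10 of 11, against 11.7%. As the 11 were grouped on these same arrays, nothing is read from those counts.

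The prenatal difference of the 11 probes ranged from 0.54 to 1.14, and 10 had an unadjusted p below 0.01, with adjusted p-values of 0.18 to 0.30 (limma). The postweaning difference ranged from 0.72 to 1.83, and all 11 had an unadjusted p below 0.01, with adjusted p-values of 0.048 to 0.14, of which 1 passed. In Cy3 the differences were 0.62 to 1.21 and 0.74 to 2.00, and in Cy5 they were -0.01 to 0.34 and -0.08 to 0.82. The 11 were grouped for their likeness on these same arrays, where shared differences between the exposure groups enter the correlations. Their p-values therefore repeat each other, and the counts below the threshold are a description and no test of the 11. For prenatal arsenic, 4 of the 11 stayed below an unadjusted p of 0.01 without tap/tap replicate 2, tap/tap replicate 3 or as/tap replicate 2, 5 without as/tap replicate 3, and all 11 without tap/tap replicate 1. The 41 other probes higher in set B had median differences of 0.11 and 0.14, with 3 and 4 of them higher at that threshold, against 3.34% and 4.53% of all probes. They are what was left once the 11 had been grouped on these arrays, so nothing is read from that contrast.

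**Figure D5:**
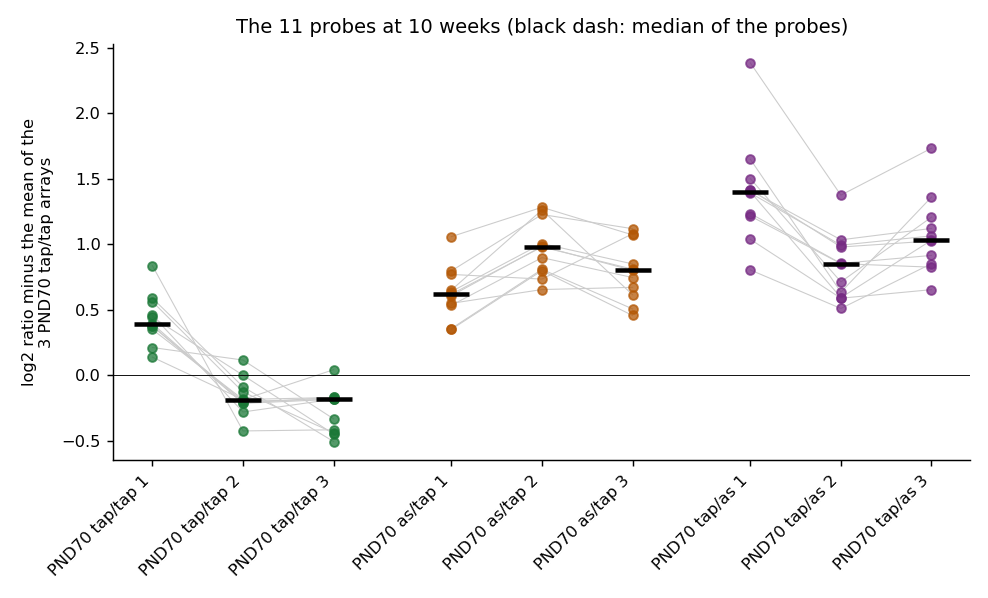
Log2 ratio of the 11 probes on each of the 9 PND70 arrays minus the mean of the 3 tap/tap arrays (vertical axis); points are probes, grey lines join 1 probe within a group, black dashes are medians over the probes, green is tap/tap, orange as/tap and purple tap/as. The medians of the exposed arrays run from 0.62 to 1.40, and those of the tap/tap arrays from -0.18 to 0.39.

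Base composition was compared between the directions as a description. The median GC content was 45.8% for the 48 probes higher in set A, from 35.0% to 65.0%, and 40.0% for the 52 higher in set B, from 23.3% to 65.0%, against 43.3% over all probes. The motif AATAAA, the canonical polyadenylation signal, stood on the printed strand of 0 of the 48 and 5 of the 52, and in 6.75% of all probes. On the other strand it stood in 1 and 3, and in 3.42% of all probes. These are matches of letters, with no transcript behind them.

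A stretch of at least 30 bases of 1 member was found in the RefSeq promoter windows of GRCm38.p6, which hold each gene's start region. Z00033748-1 shared 42 bases, on the other strand, with the windows of both Gm52502 (chr2:23014257-23014556) and Gm12505 (chr4:55418793-55419092). With 2 such windows, the match gives this probe no single gene.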

How the data were processed

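Liver RNA of 15 mice (Cy3) was hybridized with a common reference RNA (Cy5) on 2-colour 60-mer arrays. The authors deposited the output of Agilent Feature Extraction A.7.5.1, whose processed signals are intensity values on a linear scale, background-subtracted and dye-normalized within each array by that software, with no normalization between arrays. The methods' own normalization (mean-centring, quantile, log2, lowess) is not part of the deposited intensity values. From them, log2 of Cy3 over Cy5 was taken, the 42034 spots that are no controls were averaged to 42006 probes, and the rule was applied. Members, lists and tests were chosen with earlier results of these data known.

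Limma 3.58.1 in R 4.3.3 fitted 1 mean per group, to 12 arrays for age (degrees of freedom 8 residual, 2.92 prior), and to the 9 PND70 arrays for arsenic (6 and 3.18). Calls used a Benjamini-Hochberg adjusted p of 0.05 over all probes. The scripts were tested on simulated data. Probes are named by the largest gap (2 in each direction), the largest age difference (2 in each direction) and called arsenic differences (2 in each direction), and others as stated. The age probes were picked among those past the age threshold, which served to name them and is no test. Marker and pathway lists need gene names, which were not available here, so they were not used and the tissue label was not checked against markers. Arrays of a group were taken as separate litters, and their number limits the precision. At most 0.0023% of Cy3 signals were identical between any arrays.

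The replicate numbers were checked for pairing by the correlation of deviations from group means across probes. For tap/tap and as/tap at PND70 it was 0.32, 0.10 and 0.11. For tap/tap and tap/as it was 0.04, 0.35 and -0.23, and for the newborn groups -0.28, -0.08 and -0.23. The labels give the numbers no meaning. Arrays of unlike number were not correlated, so these values cannot decide whether the numbers pair the groups. The main fits used no pairing. Alternatives were the methods' normalization, median centring, Cy3 alone, outlier spots left out and a filter on dim probes. Further ones were a replicate block, other arrays fitted, an unadjusted threshold and each array left out. The methods' normalization was approximated with normexp (offset 50) and a loess span of 0.3, settings chosen here.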

Additional observations from a re-analysis of the deposited data

How the results depend on the processing

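Membership kept 83 of the 100 probes under the methods' normalization, 99 with median centring, all 100 with the filter on dim probes and 87 without outlier spots, which leave 87 members measured on every newborn array. With Cy3 alone 52 stayed among the 100 largest gaps, and with 1 newborn array left out 38 to 87 did, fewest without newborn tap replicate 1 and 60 without newborn as replicate 2. With the methods' normalization and with Cy3 alone, which was quantile normalized here (99 did in the Cy3 signals as deposited), all 100 kept sets that did not overlap, on the same side. The age counts, from which nothing is read, stayed at 19 to 36 higher and 23 to 30 lower over all alternatives.

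Members called higher with postweaning arsenic, 4 as reported, numbered 19 at an unadjusted p of 0.01, 9 with the methods' normalization, 12 with Cy3 alone, 1 without outlier spots, 0 with the replicate block, 0 when all 15 arrays or only the compared groups were fitted, and 0 to 9 with 1 array left out. Those called lower, 0 as reported, numbered 2 at the unadjusted threshold, 1 with the methods' normalization and 1 with Cy3 alone. For prenatal arsenic the 0 higher and 0 lower became 14 and 1 at the unadjusted threshold and stayed at 0 otherwise. The causes were not tested.

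The replicate block, which pairs arrays by number, gave 0 calls for prenatal arsenic as without it, and moved no other adjusted count than that of 4 by over 1.5 times. Prenatal counts at the unadjusted threshold ranged from 6 to 20 with 1 array left out. They were 9 with Cy3 alone and 0 when all 15 arrays were fitted, as was the postweaning count. The fit of all 15 arrays left the differences as they were. Its error also came from the newborn arrays, whose spread chose the members. The 11 grouped probes were higher in both exposed groups under every alternative run, 10 of them being measured without outlier spots. They were grouped on these same arrays, and several of the alternatives cannot change a difference of group means, so nothing is read from this. Of 240 values for 12 named results, 206 kept their call and direction. That count includes the age differences, which carry no test, so nothing is read from it. The age difference of Z00057159-1 turned to 0.10 in the unexposed groups only. With 1 array left out it ranged from -0.74 to 0.27 (0.27 without newborn as replicate 3, 0.20 without newborn tap replicate 1). That of Z00054465-1 turned to -0.40 in the unexposed groups only. With 1 array left out it ranged from 0.01 without newborn tap replicate 1 to 0.74 without newborn as replicate 1. With 3 arrays a group, small differences may have been missed, which was not tested.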
